A study of Mus musculus with 9 samples.

Results

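The ID genes and the feedback genes of BMP and TGF-beta signalling were followed by name: Id1, Id2, Id3, Id4, Smad6, Smad7, Smad9, Bambi, Skil and Bmpr1a, 10 of the 54838 genes counted. Each symbol of the deposited result tables matched 1 gene ID of the count files. The set was chosen by symbol with the log2 fold changes and calls of HOCl-treated against untreated B16F10 known, so its values in that comparison are given as a description and support nothing. Of the 10 genes, 9 had enough counts to enter the B16F10 fit and Id4 did not.

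RNA was sequenced from B16F10, an established mouse melanoma line of C57BL/6 origin, and from CD8+ T cells taken with a kit from spleens of adult C57BL/6 mice. Cells stood for 5 h in culture medium alone or in medium with 600 µM hypochlorous acid (HOCl), an oxidant made by neutrophils. There were 3 libraries of untreated and 3 of HOCl-treated B16F10, 2 of untreated T cells and 1 of T cells given HOCl. No source says whether replicates were separate cultures or mice, so a p-value here measures spread between libraries that may be technical. The number of mice is not given in the sources used here.

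BMP ligands bind type I receptors such as BMPR1A and lead to phosphorylation of SMAD1, SMAD5 and SMAD9, which enter the nucleus with SMAD4. TGF-beta ligands act in the same way through TGFBR1 and SMAD2 or SMAD3. Among the transcripts that answer are the ID genes, whose products lack a DNA-binding region and hold E proteins off DNA, and brakes on the pathway itself: the inhibitory SMADs SMAD6 and SMAD7, the decoy receptor BAMBI and the SMAD-binding repressor SKIL (SnoN). In CD8+ T cells, Id2 and Id3 are known for their part in effector and memory differentiation.

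Gene counts summed to between 45895352 and 61347337 in B16F10, to 49934172 and 52087754 for T cells left untreated, and to 12847418 for T cells given HOCl. The 7 melanoma markers examined summed to between 24046 and 25084 in counts-per-million units (CPM, relative to the library's total of gene counts) in B16F10, to 101 and 25.6 CPM in untreated T cells and to 6712 CPM in the T cell HOCl library. The 7 CD8 T cell markers summed to 2667 and 2608 CPM in untreated T cells and to 501 CPM in the T cell HOCl library. In B16F10 the same markers summed to 4.32 to 6.04 CPM in 5 libraries and to 24.4 CPM in HOCl replicate 3. B cell markers summed to 18.7 and 26.2 CPM in the untreated and 70.1 CPM in the HOCl T cell library, and myeloid markers to 16.2, 11.2 and 32.6 CPM. In the same order, fibroblast and endothelial markers summed to 160, 137 and 117 CPM and erythroid markers to 1.98, 9.77 and 25.5 CPM. The T cell HOCl library and, to a far smaller degree, B16F10 HOCl replicate 3 therefore stood apart from their labels.

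In B16F10 cells given HOCl, Id1, Id2, Id3 and Smad6 were each at less than 0.5 of their untreated level, while the levels of Smad7, Smad9, Bambi and Skil overlapped between groups. By edgeR's quasi-likelihood test over all 16082 genes, 4 of the 9 genes fell and 1 rose, beside 28.3% of all genes called in either direction and 13.5% called lower. The CPM ranges of 5 of the 9 did not overlap between groups, beside 43.6% of all genes, and 4 of those 5 were lower with HOCl, beside 18.4%. With all 9 libraries in 1 edgeR fit, 2 of the genes were called, Id2 and Id3. That fit called 37 of all 34290 genes tested. In the B16F10 fit the median log2 fold change of the 9 genes was -0.32, the value of Smad9, against -0.01 over all genes tested. Because the contrast chose the genes, nothing is read from these counts or from this median.

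Id2 (ENSMUSG00000020644, minus strand of chr12:25093799-25097140 in GRCm38) had the most reads of the ID genes. It stood at 146, 143 and 141 CPM in untreated replicates 1, 2 and 3 and at 78.9, 67.6 and 64.9 CPM in HOCl replicates 1, 2 and 3. The groups did not overlap, and the untreated libraries lay closer together than the HOCl libraries, with a coefficient of variation of 1.72% against 10.5%. The log2 fold change was -1.05 ± 0.07 (SE), a level 2.07-fold lower.

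Id3 (ENSMUSG00000007872, plus strand of chr4:136143497-136145755) stood at 72.9, 65.3 and 69.7 CPM in untreated cells and at 33.7, 26.3 and 20.02 CPM in HOCl cells. It had the lowest log2 fold change of the set, -1.41 ± 0.16 (SE, n = 3 per group), and 38 of the 16082 genes had a lower one. Its HOCl libraries differed from each other the most, with a coefficient of variation of 25.6% against 5.51% in untreated cells.

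Id1 (ENSMUSG00000042745, plus strand of chr2:152736251-152737410) had far fewer reads, at 4.06, 4.30 and 3.75 CPM untreated and 1.84, 1.64 and 1.56 CPM with HOCl. Those levels rested on 172 to 249 reads per untreated library and 80 to 90 per HOCl library. The log2 fold change was -1.29 ± 0.16 (SE), and the groups did not overlap. Id4 had 0 counts in all 6 B16F10 libraries and in both untreated T cell libraries, which allows a level of up to 0.0489 to 0.0654 CPM per library (3 counts, counting error only).

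Smad6 (ENSMUSG00000036867, minus strand of chr9:63953076-64022059), the inhibitory SMAD tied mainly to BMP receptors, stood at 12.6, 11.7 and 11.2 CPM in untreated cells and at 6.84, 6.05 and 4.28 CPM with HOCl. Its log2 fold change was -1.08 ± 0.14 (SE), with no overlap between groups. For Id1, Id2, Id3 and Smad6 alike, HOCl replicate 1 had the highest and HOCl replicate 3 the lowest level among the HOCl libraries. Without HOCl replicate 3 the log2 fold changes of Id1, Id2, Id3 and Smad6 were -1.24, -0.99, -1.23 and -0.91.

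**Figure D1:**
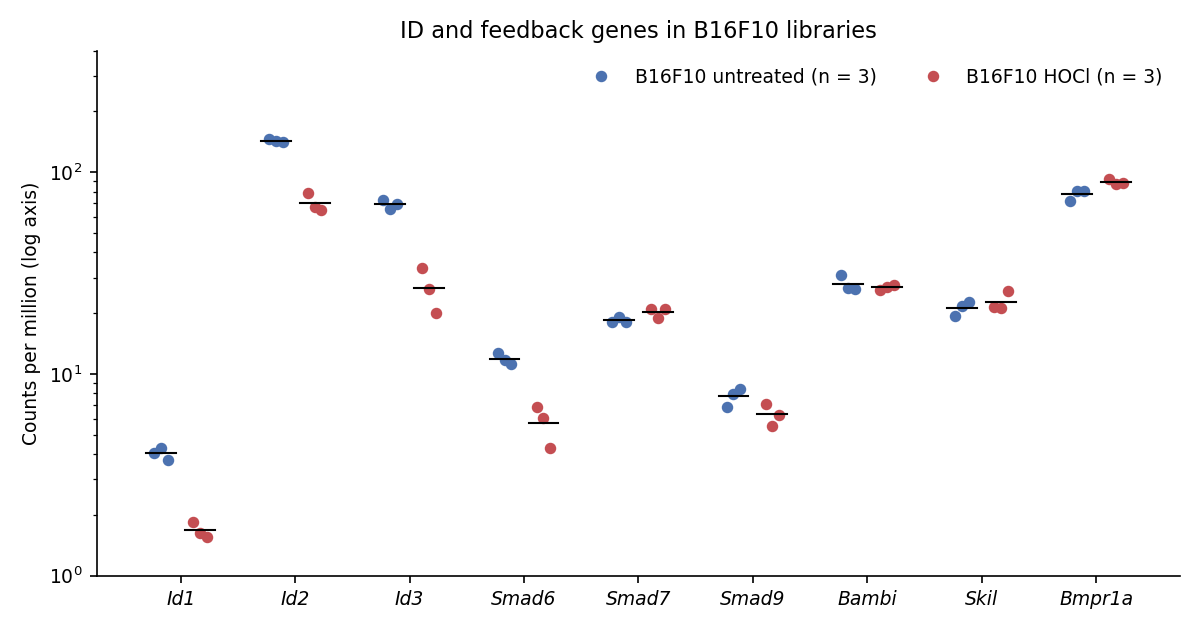
CPM (log axis) of the 9 detected genes in each B16F10 library, replicates 1 to 3 from left to right, with a line at each group's mean (n = 3). Id1, Id2, Id3 and Smad6 separate the groups, with means of 4.04 against 1.68, 143 against 70.5, 69.3 against 26.7 and 11.8 against 5.72 CPM, while Smad7, Smad9, Bambi and Skil overlap.

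Smad7, the inhibitory SMAD that answers both TGF-beta and BMP, stood at 18.1, 19.2 and 18.02 CPM in untreated cells and at 21.1, 18.8 and 21.1 CPM with HOCl. Its log2 fold change was 0.11 ± 0.07 (SE), and the ranges overlapped. Skil stood at 19.4, 21.7 and 22.8 CPM untreated and at 21.5, 21.2 and 25.8 CPM with HOCl, a log2 fold change of 0.08 ± 0.09. Its highest value was in HOCl replicate 3, where genes expressed only in T cells reached a median of 0.772% of their T cell level. That share of the T cell level of Skil is 2.32 CPM, and of Smad7 2.80 CPM. Without this library the log2 fold change of Skil was -0.020. For Id1, Id2, Id3 and Smad6 the same share came to at most 0.248 CPM, the value of Id2. The part of T cell transcripts in the levels of this library was not tested.

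Bambi, the decoy receptor without a kinase domain, stood at 31.04, 26.7 and 26.2 CPM in untreated cells and at 26.1, 26.9 and 27.6 CPM with HOCl, with a log2 fold change of -0.09 ± 0.07 (SE). Smad9, the third SMAD of the BMP branch, went from 6.88, 7.94 and 8.43 to 7.12, 5.51 and 6.25 CPM. The ranges overlapped, and the log2 fold change was -0.32 ± 0.12. Bmpr1a, the BMP type I receptor, stood at 72.2, 80.8 and 81.1 CPM untreated and at 92.1, 87.04 and 88.1 CPM with HOCl. The groups did not overlap, the log2 fold change was 0.16 ± 0.06, and the call ended without untreated replicate 2 (log2 fold change 0.19) and without HOCl replicate 1, 2 or 3 (0.14, 0.18 and 0.18).

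In the authors' deposited table for B16F10 the log2 fold changes had the same sign for Id1, Id2, Id3 and Smad6, at -0.96, -1.01, -1.02 and -0.90. They were smaller in size than those found here, -1.29, -1.05, -1.41 and -1.08 in the same order, and the reason was not tested. Its groups carry no treatment names there, and the signs are those of the table. The bulk CPM values cannot tell fewer cells that express a gene from less RNA per cell.

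RefSeq windows of the bases before the transcription start (GRCm38.p6) were at hand for 6 of the 8 genes looked up. They were searched on both strands for GGCGCC, a GC-rich element bound by SMADs of the BMP branch, CAGAC, the SMAD box, the E-boxes CAGCTG and CACGTG, the palindromic ATF/CREB site, and TGAGTCA, the AP-1 site. Shown are the genes of the falling group with a window, with matches in capitals. The Smad6 window, on the minus strand at chr9:64022060-64022309, held no match, so it has no capitals. The Id2 piece, on the minus strand at chr12:25096254-25096342, ends where an annotated exon of a longer Id2 transcript starts. For Id3, on the plus strand, the window lies inside an annotated exon of a longer transcript, so 30 bases around each match are given, at chr4:136143643-136143672 and chr4:136143742-136143771.
Smad6: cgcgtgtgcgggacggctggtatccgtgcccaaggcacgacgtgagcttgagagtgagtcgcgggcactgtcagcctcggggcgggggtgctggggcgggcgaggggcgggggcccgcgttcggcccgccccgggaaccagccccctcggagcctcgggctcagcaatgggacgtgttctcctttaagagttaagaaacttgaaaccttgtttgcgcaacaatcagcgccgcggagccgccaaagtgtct
Id2: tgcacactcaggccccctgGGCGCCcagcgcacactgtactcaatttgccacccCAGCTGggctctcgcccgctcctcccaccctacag
Id3, first match: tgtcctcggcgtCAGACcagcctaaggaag
Id3, second match: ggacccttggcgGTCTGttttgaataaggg

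In Id2, GGCGCC began at position -231 and CAGCTG at -196, counted from the base before the start as -1. In Id3, the SMAD box was read on the plus strand from position -167 and, as GTCTG, on the minus strand from -68. GGCGCC was also in the windows of Id4, Smad9 and Bmpr1a, at -148, -51 and -198, and these genes were at 0, overlapping between groups and slightly higher. Of 32851 promoter windows of 250 bases, 9.59% held GGCGCC, 42.2% CAGAC, 13.0% CAGCTG, 6.02% CACGTG, 1.55% the ATF/CREB site and 4.46% TGAGTCA. A match describes the letters and not binding by a factor.

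Genes with the most similar profile over the 6 B16F10 libraries were found by the root mean square difference of centred log2(CPM + 0.5). Among up to 9915 candidates, Id1 lay closest to Id2 (0.06), then to Cmpk2 (0.07) and Ddx60 (0.07), both known as interferon-induced genes. With means of 4.04 and 1.68 CPM, Id1 itself lay under the 5 CPM asked of candidates. At so low a level the added 0.5 shrinks log2 differences more than at that of Id2, so the small distances of Id1 partly reflect this offset. Unshrunk, the log2 fold changes of Id1 and Id2 were -1.29 and -1.05. Smad6 lay closest to Timp4 (0.05), a metalloproteinase inhibitor gene, then to Ifi44 (0.10), an interferon-induced gene, and Id2 (0.13). Id3 had no neighbour as close: Timp4 stood at 0.18, and Oasl2, an interferon-induced gene, and Smad6 each at 0.20. The compared profiles share the same 6 libraries and the treatment.

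Other genes of the pathway in B16F10 moved in both directions. Of 105 further genes in the lists, 63 were tested, 16 rose and 10 fell (edgeR, adjusted over all genes by Benjamini-Hochberg). That is 41.3% called, beside 28.3% of all genes, with 25.4% higher beside 14.7% and 15.9% lower beside 13.5%. Their median log2 fold change was 0.00. The 26 calls were single genes, and the lists as such were not tested. The lists were chosen with earlier results of these data known, so these shares are given as a description. None of the 26 was called with all 9 libraries in 1 edgeR fit, where 14 pathway genes had an unadjusted p under 0.05. Over all genes, that fit called 37 of 34290 tested.

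Ligands were few: 9 of 33 were tested, 1 rose and 1 fell. Gdf15, a stress-responsive member of the TGF-beta superfamily, rose from 48.4 ± 5.12 to 83.6 ± 3.21 CPM (mean ± SD, n = 3), a log2 fold change of 0.76 ± 0.07 (SE). Gdf11, a ligand of activin type receptors, fell from 41.9 ± 1.64 to 31.8 ± 1.12 CPM. None of the BMP genes listed was tested.

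Of 14 receptor and co-receptor genes tested, 4 rose and 2 fell, with a median of 0.19. Tgfbr3 (betaglycan) rose from 10.1 ± 0.348 to 13.8 ± 0.837 CPM, Acvr2a from 26.4 ± 2.33 to 34.2 ± 1.32 and Rgmb, a BMP co-receptor, from 23.4 ± 1.36 to 29.7 ± 0.809. Eng (endoglin), an accessory receptor, fell from 440.5 ± 3.71 to 361 ± 8.73 CPM. Acvrl1 (ALK1), a type I receptor for BMP9 and BMP10, fell by 0.26 on the log2 scale, and its call ended without HOCl replicate 2 or 3.

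Among the SMADs that carry the signal, 2 of 5 rose and none fell. Smad4, the common partner, went from 104 ± 3.88 to 122 ± 1.31 CPM and Smad1 from 21.5 ± 0.448 to 25.9 ± 0.131 CPM. Smad5 had a log2 fold change of 0.10 ± 0.05, Smad2 of 0.00 ± 0.06 and Smad3 of -0.06 ± 0.06, none past the threshold. The call of Smad1 ended without HOCl replicate 2.

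Of 9 tested antagonists and binders outside the cell, 2 fell and none rose. Fstl1, a follistatin-like gene, fell from 35.5 ± 2.12 to 26.03 ± 1.13 CPM and Ltbp3, which binds latent TGF-beta, from 156 ± 3.41 to 142 ± 5.90 CPM. The latter call ended without untreated replicate 3 and without HOCl replicate 2 or 3.

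Intracellular regulators had 8 higher and 1 lower of 14 tested, with a median log2 fold change of 0.22. Tgif1, a repressor that binds SMADs, rose from 15.4 ± 0.620 to 23.9 ± 3.00 CPM. Nedd4l and Smurf1, ubiquitin ligases that act on SMADs and receptors, rose from 175 ± 12.7 to 243 ± 5.26 and from 78.6 ± 3.39 to 105 ± 2.79 CPM. Pmepa1, a TGF-beta target that restrains SMAD2 and SMAD3, was the gene that fell, from 20.3 ± 1.09 to 13.6 ± 1.02 CPM, with a log2 fold change of -0.61 ± 0.08.

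Of 9 tested target genes outside the set, 3 fell and 1 rose. Atoh8, a helix-loop-helix gene that BMP signalling induces, fell from 5.28 ± 0.141 to 2.76 ± 0.348 CPM, a log2 fold change of -0.96 ± 0.14 with an adjusted p of 0.000341 by edgeR. Hes1, better known as a Notch target, fell by 0.75 and Ccn2 (CTGF), a matrix-linked gene, by 0.74 on the log2 scale. Snai1, a related repressor named here after its values were seen, had a lower log2 fold change than any gene of the set, -1.47 ± 0.60, on a mean of 17.3 counts per untreated library, and did not pass. Snai2, a repressor of epithelial genes, rose from 12.1 ± 0.709 to 17.8 ± 0.618 CPM. Of the E proteins, the partners of ID proteins, Tcf3 fell by 0.16 on the log2 scale, from 104 ± 3.40 to 94.97 ± 2.54 CPM, a call that ended without untreated replicate 3, without any 1 HOCl library and without TMM scaling. Tcf4 and Tcf12 had -0.13 ± 0.05 and 0.12 ± 0.07, neither past the threshold.

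**Figure D2:**
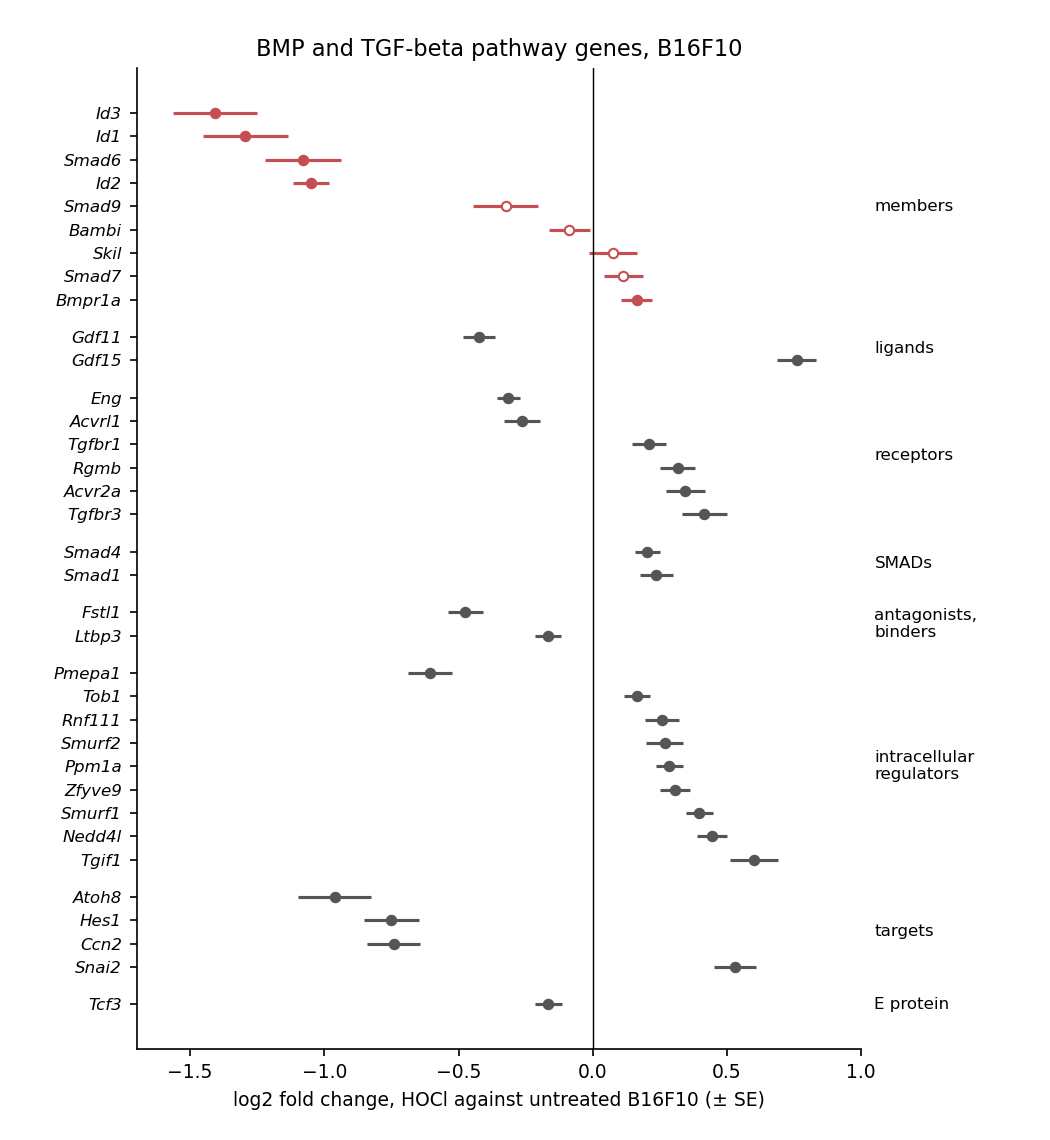
Log2 fold change of HOCl against untreated B16F10 (± SE, n = 3 per group) for the 9 members tested, in red, and for the 26 other pathway genes that passed the threshold, in grey; filled points passed an adjusted p of 0.05. Id1, Id2, Id3 and Smad6 lie between -1.41 and -1.05 and the nearest gene among those 26, Atoh8, at -0.96; Snai1, tested but not called, is not drawn and was at -1.47 ± 0.60.

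The levels of the set were next compared between untreated melanoma cells and untreated T cells, a contrast its choice did not use. The untreated B16F10 libraries were, however, also an arm of the HOCl contrast known when the set was chosen. The 9 genes that entered the test were all called, 7 of them higher in B16F10, and Smad7 and Skil higher in T cells (edgeR's quasi-likelihood test). Smad9 entered it through its B16F10 counts alone, so its direction was fixed by the filter and its call adds nothing. In this comparison 71.1% of 18352 genes were called, 35.8% higher and 35.4% lower in B16F10, so a difference is common. The CPM ranges of all 9 genes did not overlap, which held for 81.8% of all genes, and for 35.8% with the lower level in B16F10. The cell type, the culture and the source of the RNA cannot be told apart.

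Smad7 stood at 441 and 284 CPM in T cell replicates 1 and 2, against 18.02 to 19.2 CPM in B16F10. It was 23.1-fold higher in T cells, with a log2 difference (B16F10 minus T cell) of -4.53 ± 0.20 and an adjusted p of 1.75e-05 by edgeR. Skil stood at 337 and 264 CPM against 19.4 to 22.8 CPM, a log2 difference of -4.06 ± 0.16, with an adjusted p of 1.26e-05 by edgeR.

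Bmpr1a was at 8.83 and 6.78 CPM in T cells, 8.46-fold below B16F10 (log2 difference 3.08 ± 0.18). Id2 was at 29.2 and 35.2 CPM, 3.73-fold below B16F10, and Id3 at 15.3 and 10.9 CPM, 4.49-fold below. Id1 was at 0.981 and 1.71 CPM, with a log2 difference of 1.32 ± 0.38 and an adjusted p of 0.0219 by edgeR. That call ended without any 1 B16F10 library, and its log2 difference ran from 0.95 without T cell replicate 1 to 1.90 without T cell replicate 2.

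Smad6, Bambi and Smad9 had low levels in T cells, and leaving out T cell replicate 2 moved their folds by over 1.5 times. Smad6 was at 0.300 and 0.634 CPM, with a log2 difference of 4.39 ± 0.43 that became 3.93 without T cell replicate 1 and 5.16 without T cell replicate 2. Bambi was at 0.601 and 2.69 CPM, with a log2 difference of 3.80 ± 0.67 that became 3.09 and 5.40 in the same order. Smad9 had 2 counts over both T cell libraries and 1187 over the 3 of B16F10, a ratio of 391 after scaling to library totals, with an exact 95% interval of 108 to 3232 for counting error alone. For these low values, B16F10-only genes (435 genes) stood at a median of 0.424% and 0.169% of their melanoma level in T cell replicates 1 and 2. Their rule kept them under 1% in these same libraries, so the medians were limited in advance and set no bound for other genes. The mean T cell level of Smad6 was 3.94% and that of Bambi 5.88% of the B16F10 level, and the part of melanoma transcripts in them was not tested.

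Per kilobase of annotated exon, so that genes can be set beside each other, Id2 led in untreated B16F10 at 58.7 ± 1.01 CPM per kb (mean ± SD, n = 3). Id3 followed at 38.7 ± 2.13, Bmpr1a at 12.3 ± 0.789, Bambi at 5.51 ± 0.524 and Smad7 at 4.08 ± 0.147 CPM per kb. Next came Smad6 at 3.70 ± 0.230 and Id1 at 3.48 ± 0.240 CPM per kb, whose ranges overlapped, then Skil at 2.20 ± 0.177 and Smad9 at 1.44 ± 0.148. Other neighbours in this order did not overlap.

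With HOCl, the order in B16F10 changed in its middle. Id2 still led at 28.9 ± 3.05 CPM per kb, and Id3 at 14.9 ± 3.81 overlapped with Bmpr1a at 14.02 ± 0.419. Smad6 and Id1, at 1.79 ± 0.408 and 1.45 ± 0.124 CPM per kb, came below Skil at 2.36 ± 0.269. Untreated T cells had another order, with Smad7 at 80.1 ± 24.6 and Skil at 31.0 ± 5.30 CPM per kb ahead of Id2 at 13.2 ± 1.75 and Id3 at 7.32 ± 1.77 (SD, n = 2).

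**Figure D3:**
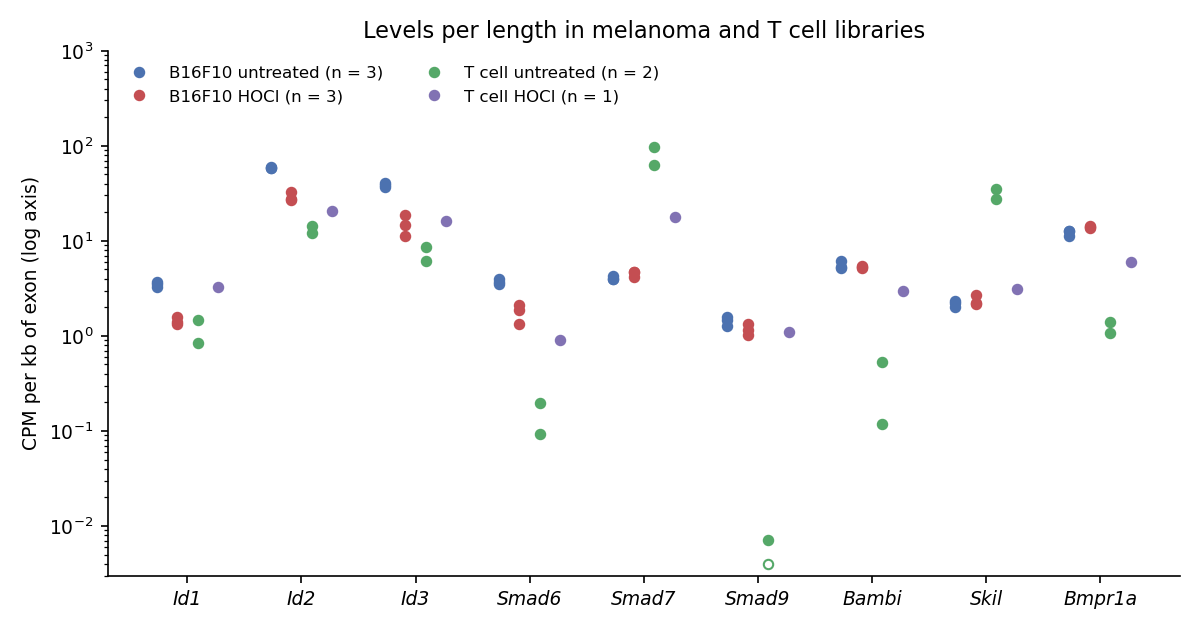
CPM per kilobase of exon (log axis) of 9 genes in each of the 9 libraries, coloured by group; the open point marks a library at 0 counts. Smad7 and Skil are highest in untreated T cells, at 62.7 to 97.6 and 27.2 to 34.7 CPM per kb, while the other 7 genes are highest in untreated or HOCl-treated B16F10.

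For T cells given HOCl there was 1 library, and no test was run. It had counts for 44225 genes against 22855 to 25907 elsewhere, and mitochondrial transcripts took 37.4% of its counts. B16F10-only genes stood in it at a median of 36.5% of their untreated melanoma level (quartiles 29.6 and 49.1%), and T cell-only genes (307 genes) at 15.98% of their T cell level (quartiles 10.5 and 26.2%). Of 12401 genes with at least 1 CPM in untreated T cells, 20.9% were at least 2-fold higher and 31.8% at least 2-fold lower.

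Genes high in untreated T cells were lower in that library. Skil stood at 30.0 CPM (exact Poisson 95% interval 27.0 to 33.1, counting error only), 9.98% of its untreated T cell mean, and Smad7 at 80.7 CPM (75.9 to 85.8), which is 22.3% of it. Both percentages are read beside the 15.98% of T cell-only genes. In the authors' deposited T cell table the log2 fold change was -4.09 for Skil and -2.93 for Smad7.

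Genes high in B16F10 were higher. Id2 stood at 50.4 CPM (46.6 to 54.5) against an untreated T cell mean of 32.2, and Id3 at 29.2 CPM (26.3 to 32.3) against 13.1. Id1 stood at 3.81 CPM (2.82 to 5.04) against 1.34, and Smad6 at 2.88 CPM (2.03 to 3.97) against 0.467. Bmpr1a stood at 37.8 CPM (34.5 to 41.3) against 7.80, Bambi at 15.02 CPM (12.98 to 17.3) against 1.64 and Smad9 at 5.92 CPM (4.66 to 7.40) against 0.0192. The authors' deposited T cell table, whose scaling was not checked here, gave lower values for these genes. Its log2 fold changes were 0.60 for Id1, -0.18 for Id2, 0.35 for Id3 and 1.54 for Smad6. The sign of Id2 thus differed between that table and the CPM values, and the reason was not tested. That table gave 1.45 for Bmpr1a, 2.18 for Bambi and 6.36 for Smad9. As a share of their untreated B16F10 level, Smad6 was at 24.3%, Id2 at 35.2%, Id3 at 42.1%, Bmpr1a at 48.5%, Bambi at 53.7%, Smad9 at 76.3% and Id1 at 94.5%. Untreated T cells already had 3.94, 22.5, 18.9, 10.0, 5.88, 0.248 and 33.3% of that level, in the same order. B16F10-only genes were held under 1% there, so their 36.5% is not a like measure. Id4 had 16 counts, or 1.25 CPM, and the genes A330033J07Rik and Gm49291 on the opposite strand, whose exons overlap it, had 18 and 24 counts. Gm17110, antisense to Bmpr1a, had 84 counts there and 5 to 20 elsewhere. The part of melanoma transcripts and of background counts in these values was not tested.

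**Figure D4:**
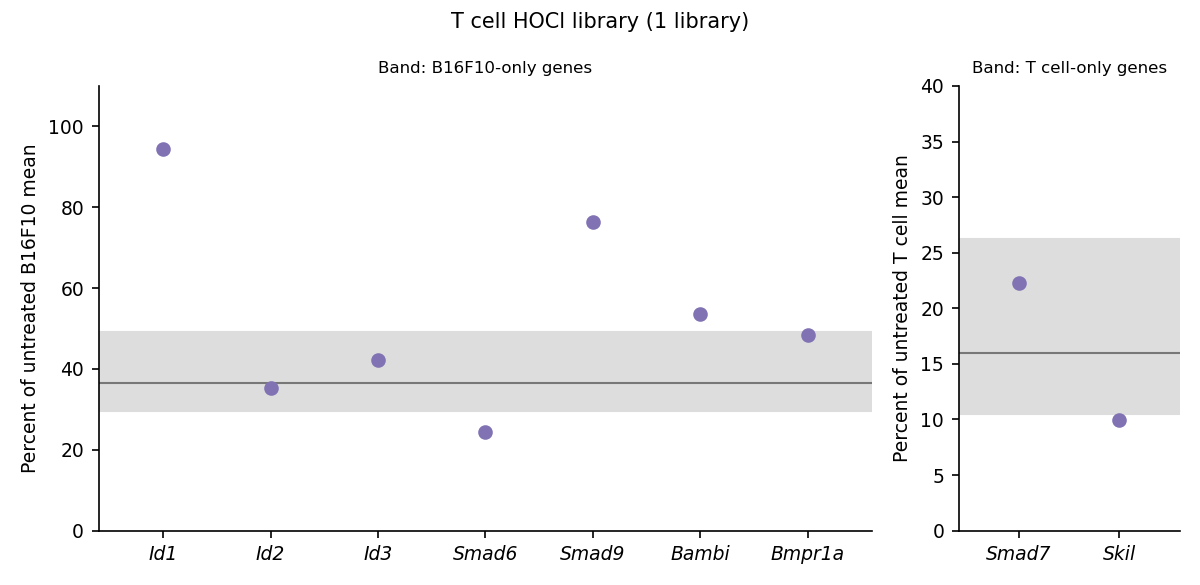
Level of each gene in the T cell HOCl library as a percent of its mean in untreated B16F10 (left, 7 genes) or untreated T cells (right, 2 genes); the line and band are the median and quartiles of B16F10-only and T cell-only genes in that library. Id2, Id3 and Bmpr1a at 35.2, 42.1 and 48.5% lie inside the band of 29.6 to 49.1%, Smad6 lies below it and Id1, Smad9 and Bambi above it. B16F10-only genes were held under 1% in untreated T cells, where Id1, Id2, Id3 and Bmpr1a had 33.3, 22.5, 18.9 and 10.0%. On the right, Smad7 at 22.3% lies inside the band of 10.5 to 26.2% and Skil at 9.98% below it.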

How the data were processed

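Reads per gene were deposited as raw counts by the authors, 1 file per library, covering 54838 genes. The submitters' processing notes list DESeq2 1.22.2, featureCounts 1.6.0, STAR 2.7.1a and FastQC 0.11.8, and build mm10. No source used here gives the strand setting, annotation release or handling of multi-mapped reads, so reads of overlapping and antisense genes cannot be told apart. Log2 fold changes and adjusted p-values of the authors' deposited tables were used only where named. Gene positions and exon lengths were from GENCODE M21 (GRCm38), which held 54809 of the IDs, and promoters from RefSeq (GRCm38.p6).

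Each comparison was fitted over all genes with edgeR 4.0.16 in R 4.3.3: filterByExpr, TMM scaling, a robust quasi-likelihood F test and Benjamini-Hochberg adjustment with a threshold of 0.05. The fit was also run on simulated counts with known changes and the same spread set for every gene. That check does not cover the larger spread between the untreated T cell libraries. The genes of the set, the pathway lists and the tests were chosen with earlier results of these data known. Pathway genes named were up to 3 per list and direction, those with the largest change among called genes with at least 50 mean counts, plus every carrier SMAD and E protein. Candidates for a similar profile needed a mean of 5 CPM, which Id1 itself did not reach. A B16F10-only gene had at least 20 CPM in each untreated B16F10 library and less than 1% of that mean in both untreated T cell libraries, and T cell-only genes mirrored it. A chi-square of counts per degree of freedom was 3.73 to 23.2 between B16F10 replicates and 393 between the untreated T cell libraries, so none was counted as a duplicate.

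Alternatives were RLE size factors, library totals, no filter, a filter of 1 CPM, the replicate number as a block, leaving out each library, 1 fit over all 9 libraries, and DESeq2 1.42.0.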

Additional observations from a re-analysis of the deposited data

Results flagged for a closer look

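For the 4 genes of the set that fell, every HOCl library of B16F10 lay below every untreated one while the single T cell HOCl library lay above both untreated T cell libraries. Of all genes tested in B16F10, 18.4% were lower without overlap. Of genes with at least 1 CPM in untreated T cells, 20.9% were at least 2-fold higher in the T cell HOCl library. The share of genes with both patterns was not counted. The difference between cell types was not tested. On the log2 scale, the T cell HOCl library over the untreated T cell mean was at 1.504 for Id1, 0.65 for Id2, 1.16 for Id3 and 2.62 for Smad6, where B16F10 had -1.29, -1.05, -1.41 and -1.08. In the authors' deposited T cell table the same genes had log2 fold changes of 0.60, -0.18, 0.35 and 1.54. The sign of Id2 was thus the other way there, and the reason was not tested. These genes are all higher in melanoma cells than in T cells, and the median B16F10-only gene was at 36.5% of its melanoma level in that library, a level whose part in these values was not tested.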

How the results depend on the processing

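Id1, Id2, Id3 and Smad6 kept their direction under every alternative run, and their calls except with all 9 libraries in 1 fit. There 2 genes of the set were called, Id2 and Id3, and Id1 and Smad6 had -1.29 and -1.08 without a call. The HOCl contrast chose these genes and the alternatives reuse its libraries, so nothing is read from their being kept. In the edgeR fit over all 9 libraries 0 of the other pathway genes were called, 14 at an unadjusted p under 0.05. Over all genes, that fit called 37 of 34290 tested. Under the other alternatives, 19 of the 26 pathway calls were kept throughout and 7 were lost at least once. Leaving out 1 library gave 4 to 6 calls in the set and 20 to 30 in the pathway lists for HOCl. Over all genes it gave 1605 to 2819 higher and 1410 to 2634 lower, of 16490 to 16674 tested. The log2 fold change of Smad9 passed the threshold without a filter (-0.33), with the replicate number as a block (-0.33) and without untreated or HOCl replicate 1, and ran from -0.42 to -0.24 over the libraries left out. Bmpr1a lost its call without a filter (0.16) and with all 9 libraries (0.16), and ran from 0.12 to 0.20. Bambi ran from -0.12 to 0.0018 and Skil from -0.020 (without HOCl replicate 3) to 0.13, both changing sign. Between cell types, Id1 ran from 0.95 to 1.90 and had 1.44 without a call under the replicate block (adjusted p 0.130, from 5.69e-05 to 0.107 over the libraries left out, edgeR). Library totals without TMM moved the median log2 difference of all genes between cell types from -0.02 to 0.22. The replicate block called 6 genes of the set for HOCl and 8 between cell types and ended no other call. Over all genes it called 2726 higher and 2567 lower of 16082 for HOCl, and 5320 higher and 4763 lower of 18352 between cell types. Same-numbered untreated and HOCl libraries of B16F10 deviated from their group means with correlations of 0.31, -0.12 and 0.26. Differently numbered ones ran from -0.41 to 0.36, the highest being untreated replicate 2 with HOCl replicate 3. The numbers were therefore not taken to pair the libraries. Raising the level of B16F10-only genes to 50 CPM gave 33.2% in the T cell HOCl library. In untreated T cells Id4 had 0 counts, Smad9 a mean of 1 count and Smad6 of 24 counts per library, which limits their values; intervals and floors cover counting error only.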
